A study of Homo sapiens with 6 samples.

Results

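Ubiquitin ligases and deubiquitinases were followed in HepG2 cells transfected with an siRNA against the long noncoding RNA H19. The 40 genes described here were chosen by name alone, as the listed genes whose symbols open with the prefixes of the RING (RNF), TRIM, KLHL, F-box (FBXO, FBXL, FBXW), USP, UBE2, UBE3, UBR, CUL, HERC, OTUD and MARCH families, leaving out antisense transcripts. They were 40 of the 1998 genes in the authors' deposited table, which holds only genes called as changed. By name, 11 belonged to the RING group, 7 to the TRIM group, 5 to the KLHL group, 1 to the F-box group, 8 to the USP group and 8 to the smaller families.

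HepG2 is a human liver cancer line. One group of 3 libraries came from cells given a control siRNA (siCon) and the other group of 3 libraries from cells given the H19 siRNA (siH19), both collected 48 h after transfection. Total RNA freed of ribosomal RNA was sequenced with a strand-specific kit. Separate cultures within a group are not stated by the labels, and the authors' standard errors (SE) and adjusted p-values then reflect the spread of these libraries alone, possibly a technical one.

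Ubiquitin is attached to proteins by a relay of an activating enzyme (E1), a conjugating enzyme (E2) and a ligase (E3), and the ligase picks the substrate. RING ligases pass ubiquitin straight from the E2 to the substrate, HECT and RBR ligases first take it onto themselves, and cullin ligases recruit substrates through exchangeable adaptors such as the KLHL and F-box proteins. Deubiquitinases, of which the USP family is the largest, take ubiquitin off again, and chains of ubiquitin send many proteins to the proteasome. In hepatocytes this system turns over cell-surface receptors, secretory proteins that misfold in the endoplasmic reticulum (ER) and regulators of the cell cycle.

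Each gene had 1 combined log2 normalized count for siCon and 1 for siH19, a log2 fold change (siH19 minus siCon), its SE and an adjusted p, all computed by the authors. Values per library were not analysed here, so no test was added, and whether single libraries overlap between the groups is unknown. Library totals and the level of H19 itself were not analysed here, so neither the depth nor the extent of the knockdown was checked. Of 8 hepatocyte markers 7 were listed in the authors' deposited table, all lower in siH19, from TTR at -0.88 to APOA1 at -0.33, with ALB (albumin) at -0.67. Among markers of other liver cell types, 1 of 5 for stellate cells, 1 of 5 for endothelium, 2 of 5 for blood and Kupffer cells and 0 of 5 for bile duct were listed, all lower: ACTA2 at -0.83, LYVE1 at -0.98, CD68 at -1.21 and LYZ at -0.64 in the authors' deposited table. Every library came from the HepG2 line, so these markers describe expression in that line and not the share of liver cell types. Whether all cells or only some of them changed cannot be told from bulk RNA. The part of these marker changes in the results below was not tested.

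The 40 genes were split evenly. In siH19, 20 were higher and 20 lower (50.0% lower) in the authors' deposited table, beside 44.7% higher and 55.3% lower among all 1998 listed genes. The 40 changes ran from -0.67 for RNF149 to 0.73 for TRIM29 on the log2 scale of the authors' deposited table. None reached 2-fold, a size that only 83 of the 1998 listed genes reached. A change of at least 1.5-fold was listed for 5 of the 40 (12.5%), namely RNF149 downward and TRIM29, USP54, RNF144A and TRIM65 upward, beside 28.2% of all genes in the authors' deposited table. The median size of change, whatever its sign, was 0.435 for the 40 genes and 0.45 for all listed genes in the authors' deposited table.

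Low adjusted p-values were fewer among the lower genes. An adjusted p under 0.01 was reached by 22 of the 40 (55.0%) in the authors' deposited table, beside 64.8% of all listed genes. These 22 were made up of 14 of the 20 higher genes (70.0%) and 8 of the 20 lower ones, while among all listed genes of the authors' deposited table the shares were 62.9% of the higher and 66.2% of the lower. In the authors' deposited table the median change was 0.50 for the higher members and -0.35 for the lower ones, beside 0.46 and -0.44 for all listed genes. The plot of the changes with their SE shows this as filled points mostly to the right of 0. Because the middle of the 40 values falls in the gap between the smallest rise (0.24) and the smallest fall (-0.23), their median of 0.005 describes no gene. The median of all listed genes was -0.27 in the authors' deposited table. After subtracting it from each change, 24 of the 40 were above 0, 15 below (37.5%) and OTUD4 at 0, and 49.9% of all listed genes were below. With values near 0 missing, -0.27 is itself the size of a called fall and no measured point of no change. Genes called lower, such as RNF128 (-0.23) and UBR3 (-0.24), therefore count as above 0 after centring.

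**Figure D1:**
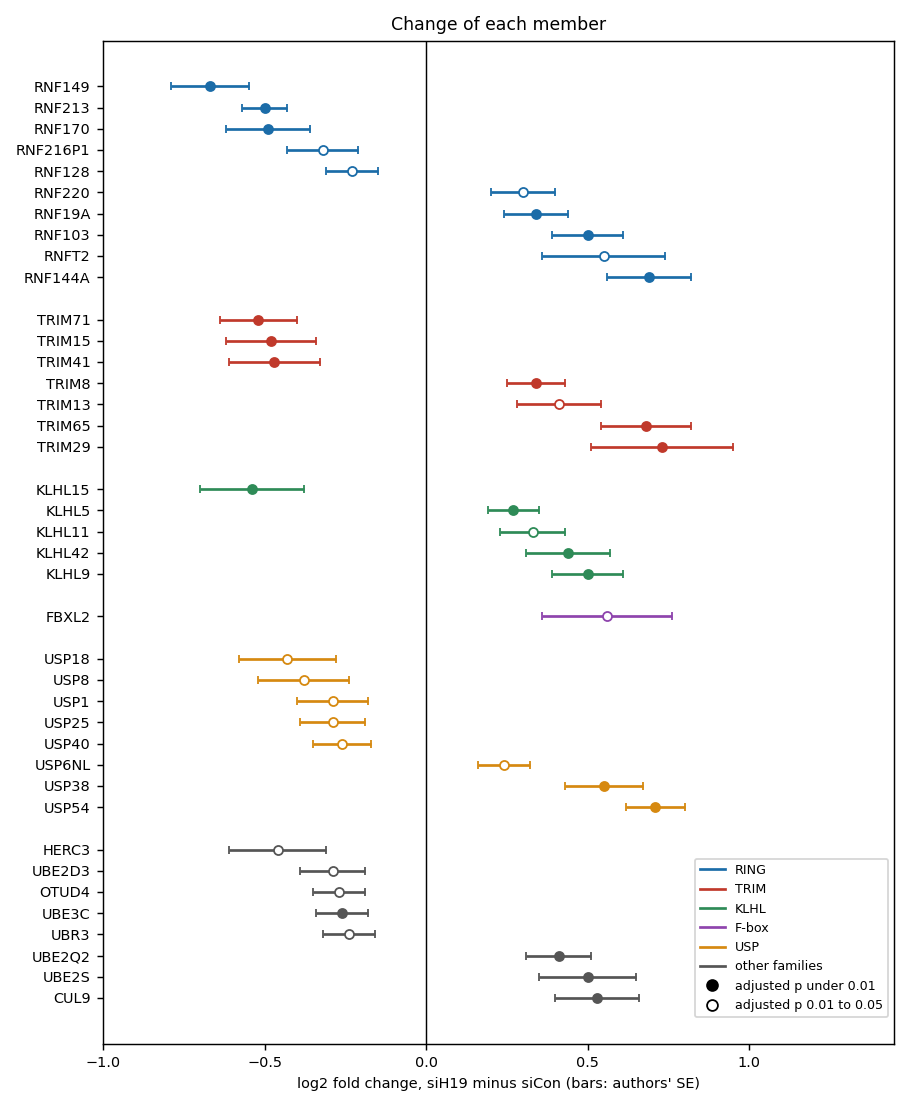
Log2 fold change (siH19 minus siCon) of 39 of the 40 genes on the horizontal axis, grouped by family on the vertical axis, with the authors' SE as bars; filled points have an adjusted p under 0.01. The changes lie between -0.67 and 0.73, and 14 points on the right are filled but 8 on the left.

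Most families were listed in shares near that of all protein-coding genes. Of 19969 protein-coding genes in the annotation 9.66% were listed, and of 427 protein-coding genes with these family names 39 were (9.13%). The share was 11.4% for RING (10 of 88), 8.75% for TRIM (7 of 80), 13.5% for KLHL (5 of 37), 10.0% for the smaller families (8 of 80) and 10.0% for USP (8 of 80), or 14.8% of 54 without the 26 near-identical USP17L copies. F-box genes stood lower, with 1 of 62 listed (1.61%). How many genes of each family were expressed highly enough to be called is unknown, so these shares were not compared by a test. The names counted also include the MARCH prefix, and such genes may stand as dates in the authors' deposited table, where they were not counted.

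Conjugating enzymes went in both directions. UBE2D3, a broadly used E2 that works with many RING ligases, had the highest mean normalized count of the 40 genes (3689) and fell from a log2 count of 11.98 in siCon to 11.70 in siH19 (-0.29 ± 0.10, adjusted p 0.0375) in the authors' deposited table. UBE2S extends ubiquitin chains on substrates of the anaphase-promoting complex, the ligase that drives exit from mitosis. Its log2 count rose from 8.22 to 8.72 (0.50 ± 0.15, adjusted p 0.00859) in the authors' deposited table. UBE2Q2, an E2 of the less studied Q class, rose from 9.16 to 9.57 (0.41 ± 0.10, adjusted p 0.00089) in the authors' deposited table. All 3 have pseudogenes by name in the annotation, 4 for UBE2D3, 2 for UBE2S and 8 for UBE2Q2, so reads could have been shared with near-identical copies and these values are uncertain.

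RING ligases were lower for 6 of 11 genes and higher for 5 in the authors' deposited table, with a median of -0.23 and 6 adjusted p-values under 0.01. Among all listed genes 55.3% were lower and 64.8% had an adjusted p under 0.01. The largest fall of all 40 genes was that of RNF149, a membrane-spanning ligase with a luminal protease-associated domain. In the authors' deposited table its log2 count went from 10.14 to 9.47 (-0.67 ± 0.12, adjusted p 2e-06), which is 1.59-fold lower in siH19. RNF128 (GRAIL), a ligase of the same membrane class best known from T cells, had the smallest fall of the 40, from 11.53 to 11.29 (-0.23 ± 0.08, adjusted p 0.0269) in the authors' deposited table. This pair of related membrane ligases moved the same way, with SE ranges that do not overlap.

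RNF213 is a giant ligase that combines an ATPase motor with a RING domain and is the main susceptibility gene for moyamoya disease. It fell from 11.53 to 11.02 (-0.50 ± 0.07) with an adjusted p below the precision of the authors' deposited table. RNF170, an ER-membrane ligase for activated IP3 receptors, fell from 8.34 to 7.85 (-0.49 ± 0.13, adjusted p 0.00316) in the authors' deposited table. RNF216P1 was closer to the threshold, at -0.32 ± 0.11 (adjusted p 0.0326) in the authors' deposited table. It is a pseudogene related to RNF216 and codes for no ligase, and its reads may be shared with its parent gene.

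RBR ligases went both ways. RNF144A rose from 7.57 to 8.26 (0.69 ± 0.13, adjusted p 9e-06, 1.61-fold) and RNF19A (dorfin) from 9.85 to 10.19 (0.34 ± 0.10, adjusted p 0.00795) in the authors' deposited table. ARIH2 and RBCK1, RBR ligases under other names, fell, at -0.35 ± 0.09 (adjusted p 0.00104) and -0.46 ± 0.13 (adjusted p 0.00426) in the authors' deposited table. RNF103, which sits in the ER membrane like RNF170, went the other way from it, from 8.78 to 9.28 (0.50 ± 0.11, adjusted p 7.5e-05) in the authors' deposited table. RNFT2, a RING finger and transmembrane protein with little known function, rose from 6.27 to 6.82 (0.55 ± 0.19, adjusted p 0.0239) in the authors' deposited table. RNF220, a ligase linked to Wnt signalling, had the smallest RING rise at 0.30 ± 0.10 (adjusted p 0.0143) in the authors' deposited table.

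TRIM proteins carry a RING, B-box zinc fingers and a coiled coil, and many act in antiviral sensing. Of 7 listed, 4 were higher and 3 lower in siH19 in the authors' deposited table, with a median of 0.34 and 6 adjusted p-values under 0.01. The shares over all listed genes were 55.3% lower and 64.8% with an adjusted p under 0.01. TRIM65, which acts on the RNA sensor MDA5 and on a partner of Argonaute, rose from 7.38 to 8.05 (0.68 ± 0.14, adjusted p 2e-05, 1.60-fold) in the authors' deposited table. TRIM13, anchored in the ER membrane, rose from 7.60 to 8.01 (0.41 ± 0.13, adjusted p 0.015) and TRIM8, a regulator of cytokine signalling, from 9.77 to 10.11 (0.34 ± 0.09, adjusted p 0.00353) in the authors' deposited table. TRIM29 lacks the RING and is mostly an epithelial gene. Its rise was the largest estimate of the 40, from 3.55 to 4.28 (0.73 ± 0.22, adjusted p 0.00754), at the lowest mean normalized count, 15.57, in the authors' deposited table. Counting error alone for such a count would give an SE of 0.308, more than the 0.22 in the authors' deposited table, and TRIM29 was the 1 gene of the 40 for which this held.

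The 3 TRIM genes that fell were alike in size. TRIM71 (LIN-41), an RNA-binding repressor of stem and progenitor cells and a classical target of let-7 microRNAs, fell from 9.90 to 9.39 (-0.52 ± 0.12, adjusted p 0.000585) in the authors' deposited table. TRIM15, a focal adhesion protein, fell from 8.15 to 7.67 (-0.48 ± 0.14, adjusted p 0.00812) and TRIM41, a ligase for protein kinase C, from 8.45 to 7.98 (-0.47 ± 0.14, adjusted p 0.00621) in the authors' deposited table. Their 1-SE ranges overlap, so the order of these falls cannot be read.

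The HECT-type and N-degron ligases among the 40 were 3 genes, each lower. HERC3, a HECT ligase with an RCC1-like domain, went from 7.29 to 6.83 (-0.46 ± 0.15, adjusted p 0.021) in the authors' deposited table. UBE3C, a HECT ligase that works at the proteasome, went from 11.20 to 10.94 (-0.26 ± 0.08, adjusted p 0.00733) in the authors' deposited table. UBR3, a relative of the ligases that read protein N-termini, went from 10.37 to 10.12 (-0.24 ± 0.08, adjusted p 0.0262) in the authors' deposited table. All 5 listed genes of 27 HECT symbols were lower in the authors' deposited table, HECTD3 (-0.38 ± 0.10) and WWP1 (-0.35 ± 0.09) among them, beside 55.3% lower among all listed genes, and no test was run on so few.

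Cullin-ligase parts among the 40 were CUL9, 5 KLHL genes and FBXL2. CUL9 (PARC), a cytoplasmic cullin that binds p53, rose from 8.07 to 8.59 (0.53 ± 0.13, adjusted p 0.00052) in the authors' deposited table. The KLHL proteins are substrate adaptors of the CUL3 ligase, and 4 of 5 were higher with a median of 0.33 in the authors' deposited table. An adjusted p under 0.01 was listed for 4 of the 5. Over all listed genes 44.7% were higher and 64.8% had such an adjusted p. KLHL9, which with its CUL3 partner acts on Aurora B in mitosis, rose from 8.67 to 9.17 (0.50 ± 0.11, adjusted p 0.000113) in the authors' deposited table. KLHL42, an adaptor for the microtubule-severing protein katanin, rose from 7.87 to 8.32 (0.44 ± 0.13, adjusted p 0.00547) in the authors' deposited table. KLHL11, an adaptor known best as an autoantigen, rose from 9.59 to 9.92 (0.33 ± 0.10, adjusted p 0.0149) and KLHL5 from 11.43 to 11.71 (0.27 ± 0.08, adjusted p 0.00965) in the authors' deposited table.

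KLHL15 was the exception among the KLHL genes. It directs CUL3 to a regulatory subunit of the phosphatase PP2A, and it fell from 7.60 to 7.05 (-0.54 ± 0.16, adjusted p 0.00841) in the authors' deposited table, and in size its SE range overlaps that of the KLHL9 rise. FBXL2, a membrane-tethered substrate receptor of the SKP1 and CUL1 ligase, was the sole F-box entry and rose from 5.25 to 5.82 (0.56 ± 0.20, adjusted p 0.0354) at a mean count of 47.22 in the authors' deposited table.

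Deubiquitinases changed in both directions. Of 8 USP names, 5 were lower (62.5%) and 3 higher in the authors' deposited table, near the 55.3% lower of all listed genes. Their median was -0.275. The 2 adjusted p-values under 0.01 both belonged to higher genes, and 64.8% of all listed genes had such a value. USP54, a little-studied family member long held to be inactive, rose from 9.28 to 9.99 (0.71 ± 0.09, 1.64-fold) with an adjusted p below the precision of the authors' deposited table. USP38 rose from 8.37 to 8.92 (0.55 ± 0.12, adjusted p 7.2e-05) in the authors' deposited table. USP54 is the 1 gene of the 40 that overlaps another listed gene, the antisense transcript PPP3CB-AS1, which changed by -0.75 at a mean count of 26.63 in the authors' deposited table. The use of strand in counting was not stated, and reads of this pair may therefore not be separate.

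The third higher USP name, USP6NL, is no deubiquitinase but a GTPase-activating protein for Rab5, and it rose by 0.24 ± 0.08 (adjusted p 0.0237) in the authors' deposited table. The largest USP fall was that of USP18, which strips the ubiquitin-like protein ISG15 from its targets and dampens interferon signalling, from 7.71 to 7.28 (-0.43 ± 0.15, adjusted p 0.0233) in the authors' deposited table. USP8, which sorts receptors at endosomes, fell from 11.18 to 10.80 (-0.38 ± 0.14, adjusted p 0.0461) in the authors' deposited table. USP1, which deubiquitinates FANCD2 and PCNA in DNA repair, fell from 10.55 to 10.26 (-0.29 ± 0.11, adjusted p 0.0436) in the authors' deposited table.

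The remaining falls were USP25 at -0.29 ± 0.10 (adjusted p 0.0247) and USP40 at -0.26 ± 0.09 (adjusted p 0.0354) in the authors' deposited table. OTUD4, a deubiquitinase of the ovarian tumour class, fell from 10.62 to 10.35 (-0.27 ± 0.08, adjusted p 0.0119) in the authors' deposited table. With USP6NL set aside and OTUD4 added, 6 of 8 genes were lower in the authors' deposited table, beside 55.3% of all listed genes. These 8 still include USP18, which acts on ISG15 and not on ubiquitin. The 6 falls lay between -0.43 and -0.26, each with an adjusted p between 0.01 and 0.05. USP8 and OTUD4 each have 1 annotated pseudogene copy that could share reads.

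**Figure D2:**
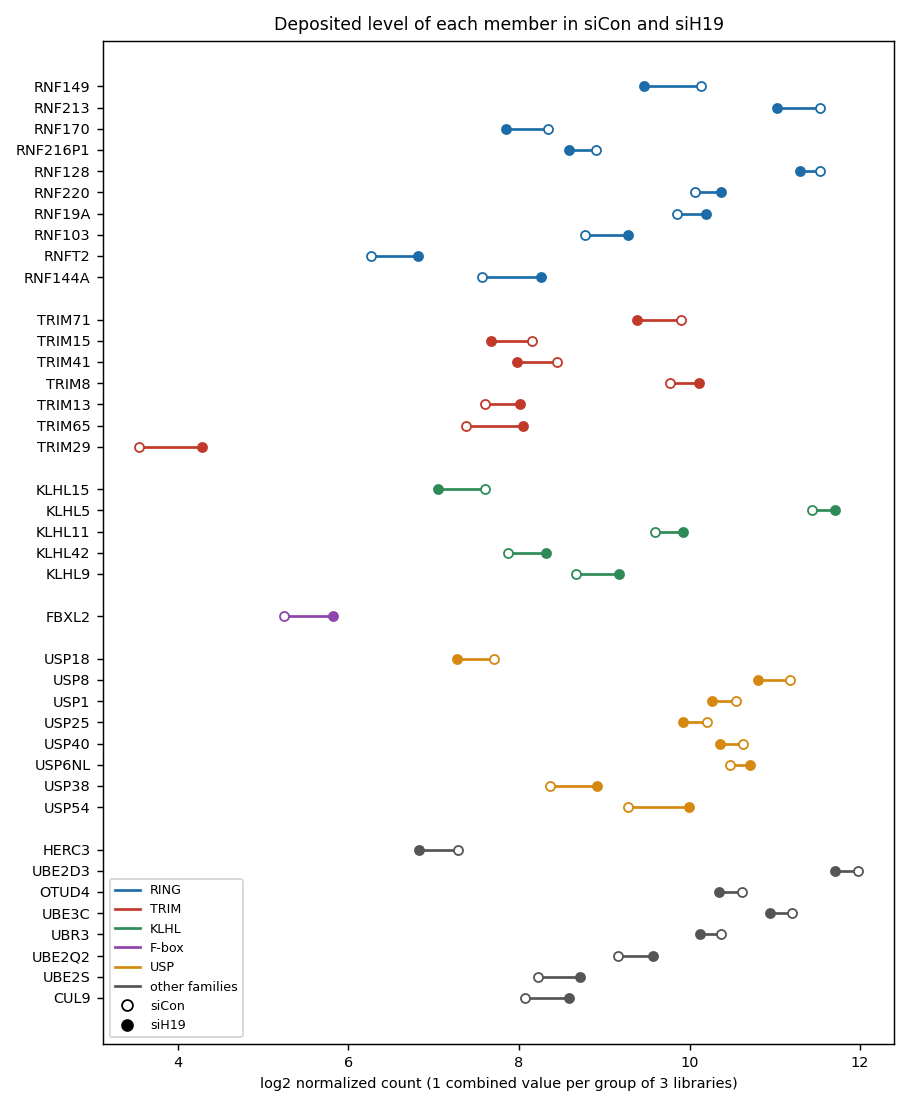
Log2 normalized count of 39 of the 40 genes, with open circles for siCon and filled circles for siH19, 1 combined value per group of 3 libraries and no error bar. The counts, not corrected for gene length, span 3.55 (TRIM29, siCon) to 11.98 (UBE2D3, siCon), and no shift within a gene is longer than the 0.73 of TRIM29.

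Set side by side, the genes that fell were 1 of 5 for KLHL, 3 of 7 for TRIM, 6 of 11 for RING and 5 of 8 for USP in the authors' deposited table. The share was 55.3% for all listed genes. Each group holds few genes, and no test of differences between groups was run. After centring on the median of all listed genes the counts below 0 became 1 of 5, 3 of 7, 5 of 11 and 4 of 8, beside 49.9% of all listed genes. Small called falls count as above 0 there, so these counts give no direction of change. The order of the medians, KLHL 0.33 and TRIM 0.34 against RING -0.23 and USP -0.275 in the authors' deposited table, hid a wide spread within each group. RING genes reached from -0.67 to 0.69, TRIM genes from -0.52 to 0.73, KLHL genes from -0.54 to 0.50 and USP genes from -0.43 to 0.71 in the authors' deposited table.

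The adjusted p-values were also spread unevenly over the groups, with no test of that. An adjusted p under 0.01 was listed for 6 of 7 TRIM, 4 of 5 KLHL and 6 of 11 RING genes but for 2 of 8 USP genes in the authors' deposited table. The share was 64.8% for all listed genes. The USP group also had the highest counts, with a median mean normalized count of 1220, beside 789.3 for RING, 490.8 for KLHL and 243.7 for TRIM in the authors' deposited table. Across the 1998 genes of the authors' deposited table the median size of change was 0.61 at mean counts under 300 and 0.35 at 1000 or more, and the part of the count in the group differences was not tested.

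The share of lower genes was set beside the mean count, with no test. Of the 14 genes with a mean count of at least 1000, 10 were lower (71.4%) in the authors' deposited table, beside 60.4% of 723 such listed genes. Of the 26 below 1000 only 10 were lower (38.5%), beside 52.4% of 1275 in the authors' deposited table. Below 1000 the share did not climb with the count: it was 41.7% of 12 genes under 300 and 35.7% of 14 genes from 300 to 1000 in the authors' deposited table. The 4 genes at 1000 or more that rose were KLHL5, USP6NL, RNF220 and RNF19A, each by 0.34 or less on the log2 scale of the authors' deposited table. Per kilobase of the main annotated transcript, the mean normalized count of the authors' deposited table was highest for UBE2D3 (1540), RNF128 (970) and KLHL5 (892) and lowest for TRIM29 (4.68) and FBXL2 (12.3).

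**Figure D3:**
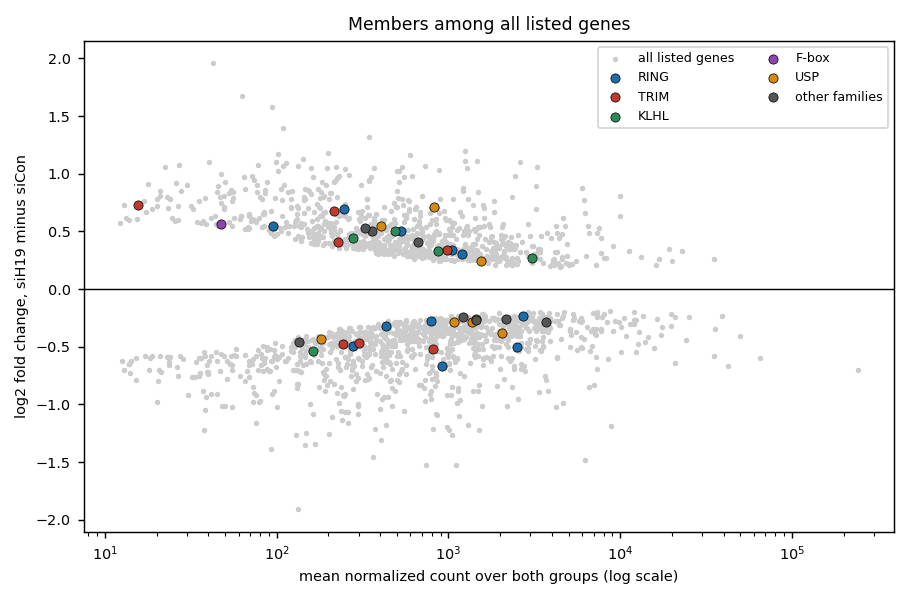
Log2 fold change (siH19 minus siCon) against the mean normalized count on a log axis for all 1998 listed genes (grey) and the 40 genes coloured by family. The band around 0 is empty because the table holds called genes only, and 10 of the 14 coloured points at 1000 or more lie below 0.

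The other genes of the ubiquitin system were taken from 12 lists with 417 symbols, some of which carry the family names used above. Apart from the 40 genes, 55 genes of these lists were in the authors' deposited table, so 55 is no share of the 417. Of annotated protein-coding genes 9.66% were listed. Of these 55, 22 were higher and 33 lower (60.0%), with a median of -0.29, beside 55.3% lower among all listed genes of the authors' deposited table. The plot of the lists shows where each direction gathered. Of 10 E1 symbols, those for ubiquitin-like proteins included, 2 were listed, both lower in the authors' deposited table. UBA7, the activating enzyme for ISG15, was at -0.56 ± 0.18 and NAE1, a subunit of the NEDD8 activating enzyme, at -0.23 ± 0.09 in the authors' deposited table. Neither is an E1 for ubiquitin itself. Of the 4 genes for ubiquitin itself 0 were listed.

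Cullin adaptors outside the KLHL and F-box names had 11 of 83 symbols listed, 8 higher and 3 lower, beside 44.7% higher among all genes of the authors' deposited table. The largest rise was that of SOCS2, a receptor for the CUL5 ligase that curbs growth hormone signalling, at 1.40 ± 0.17, and the largest fall that of DCAF10, a CUL4 receptor, at -0.51 ± 0.12 in the authors' deposited table. SPOPL, a CUL3 adaptor like the KLHL proteins, rose by 0.85 ± 0.09 on the log2 scale in the authors' deposited table. The list for neddylation and the COP9 signalosome, which put NEDD8 on cullins and take it off, had 2 of 24 listed in the authors' deposited table. These were CAND1, an exchange factor that binds cullins without NEDD8, at 0.26 ± 0.08 and NAE1 as above in the authors' deposited table.

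Ligases with RING or U-box domains under other names were balanced, with 7 higher and 7 lower of 93 symbols. They ran from BIRC3 (cIAP2), a ligase of NF-kB signalling, at -0.82 ± 0.14 to VPS11, a RING protein of vesicle tethering, at 0.55 ± 0.13 in the authors' deposited table. The anaphase-promoting complex had 5 of 19 listed, 3 higher and 2 lower in the authors' deposited table. For both lists, 55.3% of all listed genes were lower, and 9.66% of annotated protein-coding genes were listed. The activator FZR1 (CDH1) at 0.52 ± 0.14, UBE2S as above and the subunit ANAPC15 at 0.39 ± 0.12 rose, and the scaffold ANAPC1 at -0.50 ± 0.08 and the subunit CDC23 at -0.40 ± 0.09 fell in the authors' deposited table.

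The lists for steps after ubiquitination are small, and 55.3% of all genes in the authors' deposited table were lower. Other deubiquitinases had 5 of 31 listed, 4 of them lower, from PAN2 (-0.45 ± 0.11), whose domain is USP-like but inactive as a protease, to OTUB1 (0.37 ± 0.11) in the authors' deposited table. Proteasome genes had 5 of 48 listed, 4 of them lower, with PSMB9, an immunoproteasome subunit, at -0.60 ± 0.18 and PSMD9, an assembly chaperone, at 0.40 ± 0.15 in the authors' deposited table. PSMD14, the deubiquitinase of the proteasome lid, was in both lists at -0.37 ± 0.10 in the authors' deposited table.

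The p97 and shuttle list had 7 of 33 listed and 6 lower. For this list and those below, 55.3% of all listed genes were lower, and 9.66% of annotated protein-coding genes were listed. DDI2, a ubiquitin-directed protease, fell by 1.07 ± 0.13 and UBXN2B, a p97 cofactor, rose by 0.44 ± 0.11 on the log2 scale in the authors' deposited table. All 4 listed of 26 ERAD symbols, which clear misfolded proteins from the ER, were lower, from FAM8A1, a cofactor of the HRD1 ligase, at -0.78 ± 0.10 to HERPUD1 at -0.30 ± 0.09, and RNF170 was 1 of them in the authors' deposited table. From the 32 symbols of SUMO and other ubiquitin-like pathways 1 was listed, higher in siH19 in the authors' deposited table.

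**Figure D4:**
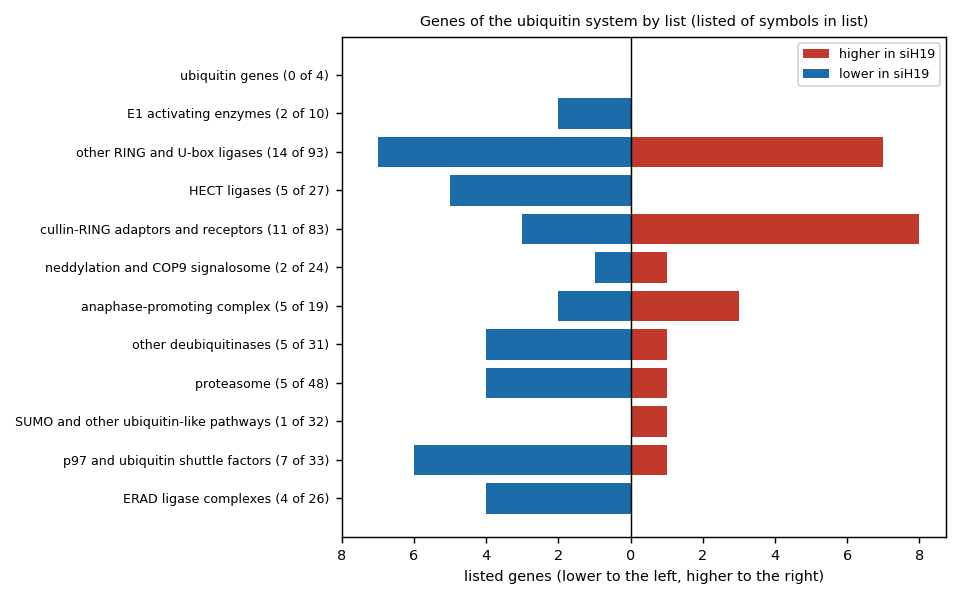
Number of listed genes higher (right) and lower (left) in siH19 for each of 12 lists of ubiquitin-system genes, with the listed number and the list size in brackets. Cullin adaptors had 8 higher and 3 lower, while all 5 HECT ligases (2 of them among the 40 genes) and all 4 ERAD genes were lower.

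The 3' UTRs of the 40 genes were searched because H19 is the host of miR-675, has been described as binding let-7, and because an earlier search of these same fold changes had tied the 7-base words CATCAAA to lower and GCAGTAC to higher genes. That search included the 40 genes, so what follows for these words is no independent support. The mature microRNAs, from RefSeq, are printed 5′ to 3′ with the seed (bases 2 to 8) in capitals, since the complement of the seed is the word searched.
let-7a-5p: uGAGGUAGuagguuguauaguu
miR-675-5p: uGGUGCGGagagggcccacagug
miR-675-3p: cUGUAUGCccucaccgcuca
The 8 let-7 names that share this seed form 1 group, and the words searched on the transcript strand were CTACCTC for let-7, CCGCACC for miR-675-5p and GCATACA for miR-675-3p. A match is a description of the letters in the annotated UTR and not evidence of binding.

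CATCAAA was held by 8 of 39 searched members (20.5%), beside 15.8% of 1912 listed genes and 10.2% of 18934 annotated UTRs. Of these 8, HERC3, KLHL15, RNF170, TRIM71, UBE2D3, USP1 and USP8 were lower and KLHL42 higher in the authors' deposited table, and of the 31 without it 12 were lower and 19 higher. Among all listed genes 74.5% of those with the word and 51.1% of those without it were lower in the authors' deposited table. The windows below, from the GENCODE transcripts on GRCh38, show the word in capitals with 10 bases on each side, as 1 match for each of 6 of the lower genes and for the higher KLHL42, and the match of RNF170 is not shown.
HERC3, chr4:88708330-88708356, plus strand: tgtgataaagCATCAAAtcttgatgaa
KLHL15, chrX:23985742-23985768, minus strand: caggtatccaCATCAAAgcctttacac
TRIM71, chr3:32896241-32896267, plus strand: atcttggaaaCATCAAAtatttgaagg
UBE2D3, chr4:102797007-102797033, minus strand: tcagttgtcaCATCAAAggatacagca
USP1, chr1:62451036-62451062, plus strand: aagttgattaCATCAAAgaatctttag
USP8, chr15:50499507-50499533, plus strand: catacttgcaCATCAAAtcgatgtaca
KLHL42, chr12:27798427-27798453, plus strand: aatgacggatCATCAAAatgtagattc
UBE2D3 and USP1 hold the word 2 times each. The 1 lower KLHL gene, 1 of the 3 lower TRIM genes and 2 of the 5 lower USP genes are among the carriers, whereas RNF149 and RNF213 fell without it.

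GCAGTAC was held by 5 of 39 members (12.8%), beside 8.42% of listed genes and 3.89% of all UTRs. KLHL42, KLHL9, UBE2Q2 and USP38 were higher and UBR3 lower in the authors' deposited table, and of the 34 without it 16 were higher and 18 lower. Among all listed genes 16.1% of those with this word were lower, against 58.4% of those without it, in the authors' deposited table. The same kind of window is shown for each gene, with the word in capitals.
KLHL42, chr12:27800431-27800457, plus strand: tgggctgccaGCAGTACgtgggaaagg
KLHL9, chr9:21332969-21332995, minus strand: taacacctttGCAGTACgtcatgggtg
UBE2Q2, chr15:75899538-75899564, plus strand: ccctattacaGCAGTACcgaagatgtt
USP38, chr4:143221214-143221240, plus strand: tatgtgccttGCAGTACtgtaattcaa
UBR3, chr2:170083276-170083302, plus strand: ggaaagcagaGCAGTACatattcaaat
KLHL9 holds the word 2 times. KLHL42 is the 1 member with both words, and it rose.

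**Figure D5:**
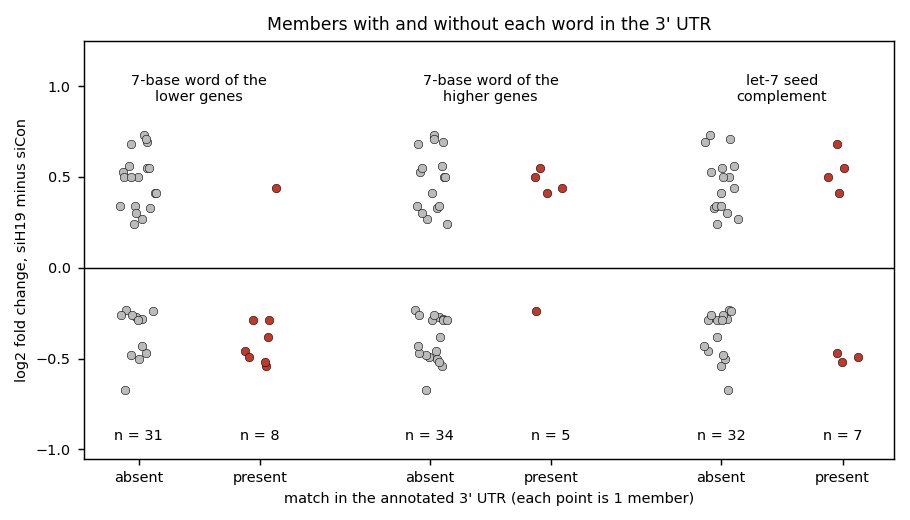
Log2 fold change (siH19 minus siCon) of the 39 members with a searched 3' UTR, by absence (grey) or presence (red) of the word tied to lower genes, of the word tied to higher genes and of the let-7 seed complement; each point is 1 gene and sideways scatter carries no value. The red points lie mostly below 0 in the first pair (7 of 8), mostly above in the second (4 of 5) and on both sides in the third (3 below, 4 above).

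Members with the let-7 word fell on both sides of 0. It was held by 7 of 39 (17.9%), beside 11.8% of listed genes and 8.58% of all UTRs, and RNF170, TRIM41 and TRIM71 were lower but TRIM13, TRIM65, UBE2S and USP38 higher in the authors' deposited table. Among all listed genes 52.9% of those with the word and 55.1% of those without it were lower in the authors' deposited table. TRIM71 stood out by number, with 6 matches in a UTR of 6015 bases. The part of let-7 in its lower level was not tested, and 3 of the matches are shown.
TRIM71, chr3:32891973-32891999, plus strand: tgcttaagtcCTACCTCatctttattt
TRIM71, chr3:32895810-32895836, plus strand: tgctgagtttCTACCTCacttgtggca
TRIM71, chr3:32895833-32895859, plus strand: ggcaagtcatCTACCTCatgttagcat
TRIM71 also holds CATCAAA, as shown above.

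The miR-675 words were found in few members. The word for the 5p arm, held by 3.34% of all UTRs, was found in OTUD4, and that for the 3p arm, held by 5.70%, in KLHL15, RNF170 and USP8, all 4 lower in the authors' deposited table. Among all listed genes there was no such lean: 52.5% of those with the 5p word and 54.9% of those without it were lower, and 53.8% against 54.9% for the 3p word, in the authors' deposited table. Of the members without the 3p word 16 were lower and 20 higher in the authors' deposited table, and KLHL15, RNF170 and USP8 all hold CATCAAA too. The median length of the searched UTR was 1691 bases in the 39 members and 1386 in listed genes, with 1617 for the lower and 1755 for the higher members, and that of USP8 was 15331. The part of UTR length in these counts was not tested.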

How the data were processed

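RNA was measured in 6 HepG2 libraries, 3 siCon and 3 siH19, grouped by the labels. The authors' steps named DESeq2 1.0.0, STAR 2.5.0a and Cufflinks 2.2.1 with build hg19, per the submitters' processing notes, which give no role or order. Not given in the sources used here were the annotation, strand use and the handling of reads with several matches. Per the file headers, the authors deposited log2 counts for each group, a log2 fold change and its SE. The deposited mean count is a normalized signal rather than whole reads, per the file headers and its values. The q-value deposited by the authors is an adjusted p-value, under 0.05 in every row, and 0 there means below the table's precision. Only called genes are held, so values near 0 are missing by construction. Whether fold changes were shrunken is not given in the sources used here. No model could be fitted, so counts and medians are described beside those of all listed genes.

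The deposited fold change of each member equalled the difference of its group values within 0.01. Symbols were matched to GENCODE release 29 (1974 of 1998, 98.8%, and all 40 members), which is on GRCh38 and not on hg19, and its coordinates belong to GRCh38 only. It gave biotypes, overlaps, lengths and the 3' UTR of the principal transcript with the longest UTR. Mature microRNAs came from RefSeq (GRCh38.p14).

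The members, gene lists and words were chosen with earlier results of these data known. Values in full were to be given for the 3 largest rises and falls of each main group, every member of the smaller families, the 3 highest mean counts, and the largest rise and fall of each list. The remaining members are named too, except that 1 member and some list genes are counted but not reported here by name, and other list genes were chosen after their values were seen. Alternatives were an adjusted p under 0.01, a mean count of at least 100, a change of at least 1.5-fold, centring, and leaving out non-enzymes, overlapping genes or, added later, pseudogenes and genes with pseudogene copies. Counting was tested on simulated data. Python 3.11.15, pandas 2.3.3 and numpy 2.4.6 were used.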

Additional observations from a re-analysis of the deposited data

How the results depend on the processing

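Of 76 values recomputed, 49 stayed close to the reported value, 17 moved and 10 changed sign. Many of the 49 could not differ, because the setting removed no gene of that group. Examples are TRIM and KLHL without non-enzymes or overlapping genes, so the tally is no measure of stability. With an adjusted p under 0.01 the lower members numbered 8 in all, 3 for RING and 0 for USP, and the medians were 0.375 for all members, -0.075 for RING, -0.065 for TRIM and 0.63 for USP. With changes of at least 1.5-fold the lower members numbered 1 in all, 1 for RING, 0 for TRIM and 0 for USP, and the medians were 0.69, 0.01, 0.705 and 0.71. Centred on all listed genes, the medians were 0.275 for all members, 0.04 for RING, 0.61 for TRIM, 0.6 for KLHL, 0.83 for F-box and -0.005 for USP. That centring puts small called falls above 0. A mean count of at least 100 gave -0.24 for all members and -0.065 for TRIM. The median of all members was -0.23 without non-enzymes, -0.23 without the overlapping gene and, chosen after seeing the data, 0.255 without pseudogenes and genes with copies, where RING was 0.035. A split of 20 against 20 around an empty middle lets 1 gene set the sign of that median. No value could be given for KLHL at 1.5-fold, nor for F-box at an adjusted p under 0.01, a mean count of at least 100 or 1.5-fold, as no gene was left. No paired analysis was possible because the deposited values are combined over the libraries of a group. For the same reason no replicate could be left out. Depth is unknown, and TRIM29 and FBXL2 have the lowest counts.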

Other observations

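Some entries with related names fell outside the rule. USP27X-AS1, an antisense transcript left out by its name, was at a log2 count of 5.45 in siCon and 4.85 in siH19 (-0.60 ± 0.21, adjusted p 0.0342) in the authors' deposited table. Another 3 entries of the authors' deposited table carry dates in place of gene names. The entry 2-Mar was at -0.50 ± 0.18, 1-Mar at -0.45 ± 0.11 and 10-Sep at -0.39 ± 0.10 in the authors' deposited table. MARCH ligases and the unrelated MARC genes cannot be told apart under the first pair of names, and neither was counted.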
